A study of Homo sapiens with 4 samples.

Results

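The RNF genes are human genes named for the RING finger, a zinc-binding fold with which most of their proteins act as E3 ubiquitin ligases. An E1 enzyme activates ubiquitin, an E2 enzyme carries it, and the E3 ligase brings the loaded E2 to a chosen protein, which is then degraded or changed in its activity. RNF41 (also called Nrdp1) is a ligase known for driving the degradation of the receptor ERBB3, and it is itself kept stable by the deubiquitinase USP8. The members were all genes whose symbol is RNF, a number and at most 1 further letter, and which had at least 1 protein-coding RefSeq record (NM_ identifier). There were 82 such genes of 24510 genes in the series, with 155 NM_ accessions on 175 records of 53209 records in all.

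The RNA came from DU-145, a prostate carcinoma line grown from a metastasis, in which miR-28-5p targets were to be identified by a miRNA pull out assay. In both groups cells were transfected with 60 nM of a miR-28-5p duplex. The miR-28CT group (2 libraries) got the untagged duplex and gives the background RNA of the beads, and the miR-28BIO group (2 libraries) got a mix of duplexes with a 3' biotin and a thiouridine at nucleotide 8 or 18. All cells were irradiated with UV at 365 nm on the day after transfection, and RNA held by streptavidin beads was sequenced. Extra miR-28-5p was thus present in both groups, and because no library of unselected RNA was analysed here, the amount of an RNA in the cells and its recovery on the beads cannot be told apart. The study's methods describe the libraries of a group as biological replicates, and the labels number them 1 and 2 without saying whether libraries of equal number were prepared together.

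The files give FPKM, fragments per kilobase of transcript relative to the mapped reads of the library, which can be compared between genes because it is a level per length. Coverage and FPKM together corresponded to 17.9 M and 12.99 M reads in the miR-28CT libraries and 17.3 M and 14.7 M in the miR-28BIO libraries. Levels below are FPKM divided by a factor per library (0.850 to 1.09), called scaled FPKM, and a gene's level is the sum over its NM_ records. Epithelial markers KRT8, KRT18, EPCAM and CDH1 were above 0 in all 4 libraries and KRT5 was listed at 0. KLK3, KLK2 and TMPRSS2, which mark androgen-dependent prostate cells, were listed at 0 in all 4, as were 5 of 5 blood markers. Of 6 markers of endothelium and fibroblasts, COL1A1 lay between 0.10 and 0.21 scaled FPKM and VWF reached 0.02 in 1 library. A listed 0 is not proof of absence, since 396 genes were at 0 in at least 1 library and at 5 scaled FPKM or more in another, among them UBE2L3, an E2 enzyme. The deposited FPKM does not always lie within the Cufflinks interval given beside it: of the tested RNF records above 0, 15.2% and 23.9% in miR-28CT and 16.2% and 18.3% in miR-28BIO had an FPKM outside (tolerance 0.1%), against 14.1% and 31.5%, and 16.7% and 26.2%, of all tested records. In 22 of the 57 RNF genes tested this held in at least 1 library, and RNF41 was not among them. Why FPKM and interval part was not tested. The levels below are FPKM, with the midpoint of the interval (scaled alike, an alternative added after seeing the data) given where it changes a statement.

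Because a miRNA pairs with its targets mainly through nucleotides 2 to 8, the seed, matches to the seed are shown for 5 of the RNF genes that hold one in the 3'UTR. The seed was read from miR-708-5p, a miRNA of the same seed family as miR-28-5p (RefSeq, GRCh38.p14, chr11:79402077-79402099, minus strand), with the seed in capitals. The windows below come from the GENCODE reference transcript of each gene (hg38), run 5' to 3' on the strand of the gene, lie in the last exon, and have the match, AGCTCCT, in capitals.
miR-708-5p: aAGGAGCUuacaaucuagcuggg
RNF41, chr12:56203299-56203327, minus strand: actatgatcccAGCTCCTtggaaggctaa
RNF41, chr12:56202633-56202661, minus strand: aaggacgataaAGCTCCTgattctgatgg
RNF24, chr20:3932952-3932980, minus strand: tagtttcaggaAGCTCCTgcagggctgtc
RNF212, chr4:1071918-1071946, minus strand: gacatgttttcAGCTCCTttgggtaaata
RNF138, chr18:32130895-32130923, plus strand: atttaaaaaacAGCTCCTttttaagactt
RNF213, chr17:80394975-80395003, plus strand: cttgcactcggAGCTCCTttgatacctca

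RNF41 was the RNF gene recovered most in the miR-28BIO libraries. Its level was 3.06 scaled FPKM in replicate 1 and 3.81 in replicate 2 of miR-28CT, and 19.6 in replicate 1 and 21.9 in replicate 2 of miR-28BIO. Both miR-28BIO values were thus several times both miR-28CT values, and the replicates of each group lay close together. In each miR-28BIO library RNF41 had the highest level of the 57 RNF genes tested, whereas it ranked 34 and 28 among them in the miR-28CT libraries. The log2 fold change was 2.57 (SE 0.41, n = 2 against 2), and 2.64 and 2.49 between the libraries numbered 1 and those numbered 2. On interval midpoints it was 2.71. The difference did not pass the test over all 11219 genes (limma, Benjamini-Hochberg adjusted p = 0.752, unadjusted p = 0.0032), where RNF41 ranked 48 by p and 183 by log2 fold change. An exact permutation test of 2 against 2 libraries cannot give a two-sided p under 0.333. RNF41 is the RNF gene in the study's own list of enriched transcripts, a list chosen on these libraries, so that listing is not independent evidence of its direction.

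In the miR-28BIO libraries most of the RNF41 level was assigned to 1 transcript. RNF41 lies on chr12:56202504-56221969 (hg38, minus strand), and the files hold 4 NM_ records and 1 non-coding record of it. NM_194359, of 5172 bases, had 3.26 and 1.44 FPKM in miR-28CT and 20.7 and 19.8 FPKM in miR-28BIO. The Cufflinks intervals were 2.83 to 3.70 and 1.16 to 1.71 FPKM against 19.6 to 21.9 and 18.6 to 21.0 FPKM, and the coverage corresponded to about 300.4, 96.3, 1841.2 and 1503.2 reads. The groups did not overlap in these intervals, within which all 4 FPKM values of this record lay, and which do not cover the spread between libraries. The log2 fold change of this record was 2.998 (SE 0.53, limma, adjusted p = 0.845 over 15587 records). NM_194358 was listed at 0 in replicate 1 of both groups and had 1.80 FPKM in miR-28CT replicate 2 and 3.98 FPKM in miR-28BIO replicate 2. NM_005785 and NM_001242826 were listed at 0 in all 4 libraries, and the non-coding NR_040053 had 0.79 FPKM in miR-28CT replicate 1 only.

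**Figure D1:**
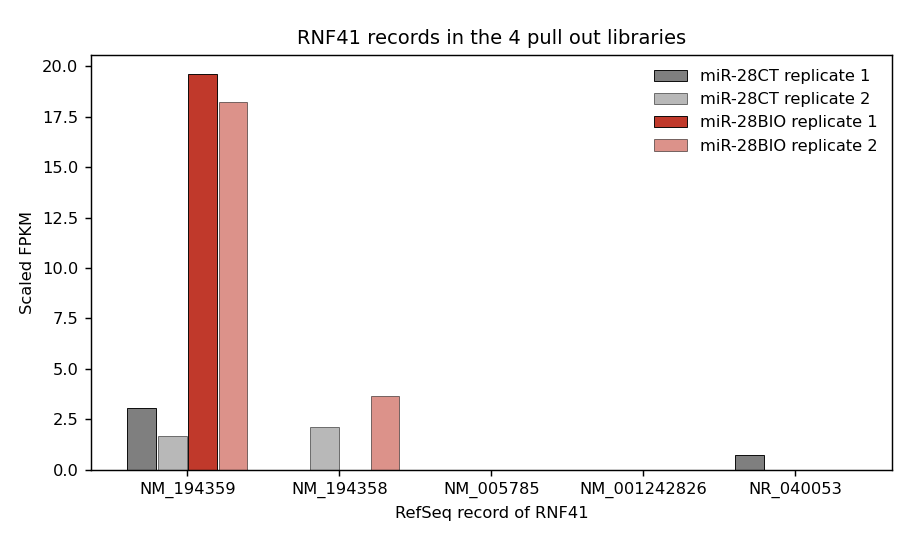
Scaled FPKM (linear axis from 0) of the 5 RefSeq records of RNF41, with 1 bar for each library. NM_194359 reaches 19.6 and 18.2 in the miR-28BIO libraries and 3.06 and 1.69 in the miR-28CT libraries, and no other record passes 3.66.

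Both seed matches of RNF41 lay in exon 7 of 7 of transcript ENST00000345093.9, 3131 and 3797 bases after the stop codon, within the span of NM_194359. Of all 10306 tested genes with a reference transcript, 15.5% had at least 1 such match in the 3'UTR and 2.94% had at least 2. Among the 57 tested RNF genes 6 had at least 1 (10.5%), and RNF41 was the one with 2. The log2 fold changes were 2.57 for RNF41, 0.71 for RNF24, 0.64 for RNF212, 0.17 for RNF213 and 0.02 for RNF138, and none of the 6 genes passed the adjusted test. RNF24, a membrane ligase, had 1.12 and 1.94 scaled FPKM in miR-28CT and 2.42 and 2.57 in miR-28BIO. RNF212, known for its part in meiotic crossing over, had 4.04 and 3.82 against 6.12 and 6.27 scaled FPKM. In RNF41, RNF24 and RNF212 the lower miR-28BIO value exceeded the higher miR-28CT value. The same held in 7 of the 51 tested RNF genes without a match. Over all genes it held in 339 of 1598 with a match and in 939 of 8708 without one. In RNF213, a very large ligase, the values of 7.88 and 9.80 against 9.01 and 10.9 scaled FPKM overlapped, as did those of RNF138, which acts in DNA end resection, at 11.9 and 5.75 against 9.76 and 7.14 scaled FPKM.

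The 6 RNF genes with a match had a median log2 fold change of 0.58 and the 51 without one had -0.23, a difference of 0.82, or 0.75 without RNF41 (an alternative added after seeing the data). Over all genes tested the medians were 0.15 with and -0.13 without a match. Length of the 3'UTR moved with this comparison: its median was 3810 bases in the RNF genes with a match and 1267 bases in those without. The 24 RNF genes that had no match but a 3'UTR of at least 1396 bases, the shortest among the 6, had a median log2 fold change of 0.18, and the 27 with a shorter one had -0.49. Over all genes with a 3'UTR of at least that length, the median was 0.18 with a match (1271 genes) and 0.04 without (3781 genes). Among RNF genes a match in the coding sequence was found in 10 of 57 (17.5%, against 19.7% of all genes), and the 8 of these with none in the 3'UTR had a median log2 fold change of 0.05. No tested RNF gene had the match followed by an A, which 2.45% of all genes had. RNF24 shares 2579 exonic bases with PANK2 on the opposite strand, and whether reads were assigned by strand is not given in the sources used here.

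**Figure D2:**
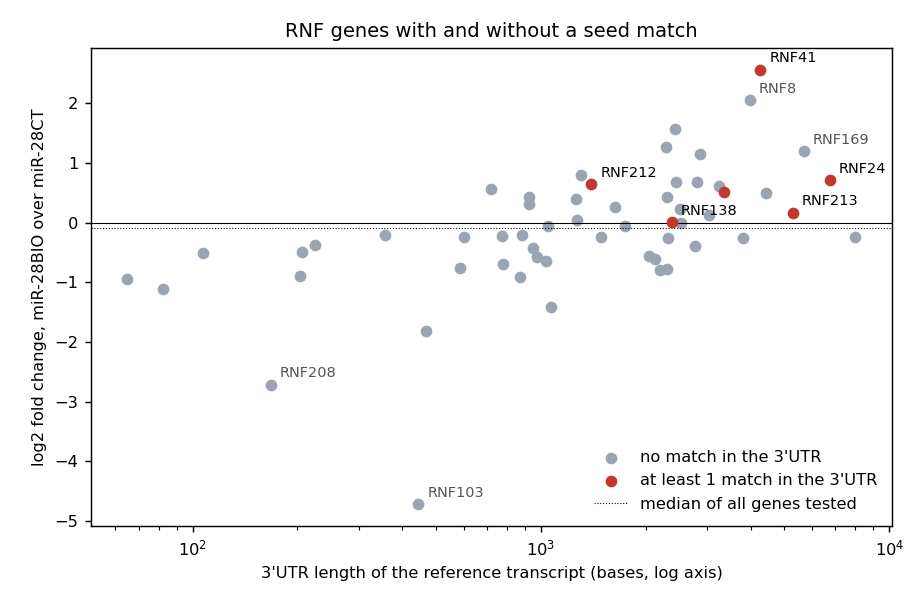
The log2 fold change of the gene sum (miR-28BIO over miR-28CT) of the 57 tested RNF genes against the length of the 3'UTR in bases (log axis), in red where the 3'UTR holds AGCTCCT and in grey where it does not. The 6 genes with a match lie between 0.02 and 2.57, and the genes with short 3'UTRs lie mostly below 0.

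As a set, the RNF genes lay on both sides of the background RNA, with 25 above and 32 below a log2 fold change of 0. Of the 57 genes tested, 0 were higher and 0 were lower in miR-28BIO at an adjusted p under 0.05 by limma (background over all genes 0% and 0.0267%). At an unadjusted p under 0.05, 2 were higher (RNF41 and RNF185, background 2.23%) and 1 was lower (RNF103, background 0.856%). The adjusted p was 0.943 for RNF103 and 0.9998 for each of the remaining 55 genes. The miR-28BIO libraries lay entirely above the miR-28CT libraries in 11 genes (19.3%, background 12.3%) and entirely below them in 12 (21.1%, background 12.7%). Without the scaling, on FPKM as deposited, these were 17 and 9 of 59 genes (28.8% and 15.3%, against 15.5% and 8.51% of all genes on that scale). The median log2 fold change was -0.20 over the RNF genes (quartiles -0.58 and 0.50) and -0.08 over all genes, and its sign turned without the filter on low genes (0.032), on interval midpoints (0.041) and on FPKM as deposited (0.11, with all genes at 0.08). Separation by at least 2-fold was seen in 2 RNF genes above, RNF41 and RNF185 (background 3%), and in 3 below, RNF103, RNF5 and RNF208 (background 1.72%). These 3 genes reached the minimum of 0.5 scaled FPKM through miR-28CT alone, and they are among the 12 genes entirely below. Neither of these 2 counts, nor the unadjusted p of RNF103 above, thus stands as support for a difference.

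**Figure D3:**
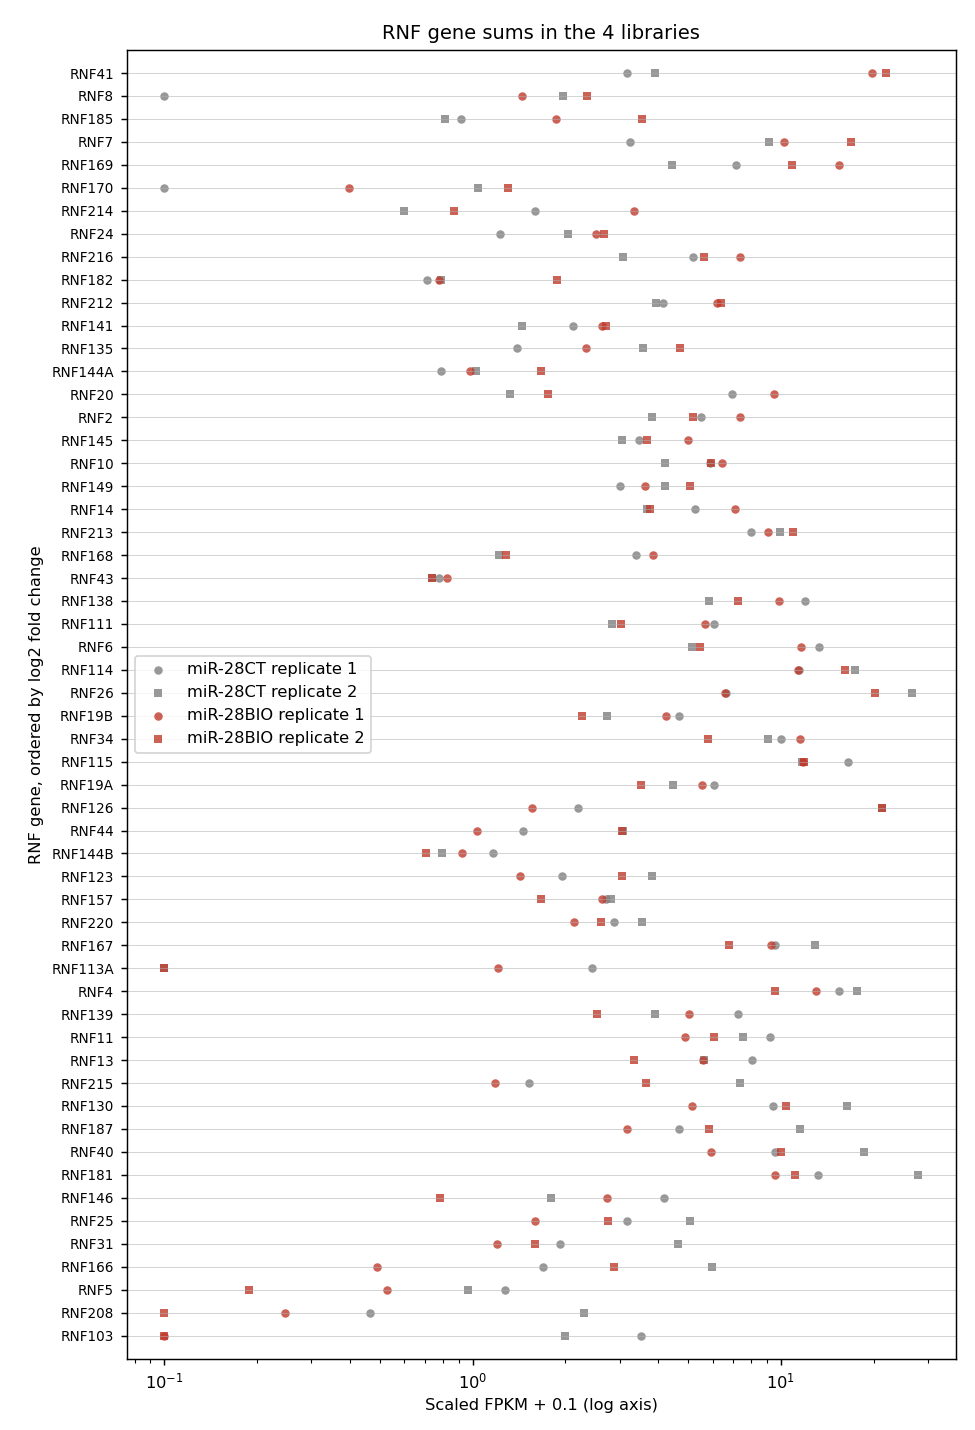
Scaled FPKM plus 0.1 (log axis) of 56 of the 57 tested RNF genes in the 4 libraries, ordered by log2 fold change, with circles for replicate 1 and squares for replicate 2. RNF41 at the top has both miR-28BIO points clear of both miR-28CT points, while most genes overlap or differ more between replicates than between groups.

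Ligases that act on chromatin and damaged DNA had 9 members tested, 6 with a log2 fold change above 0 and 3 below (median 0.13), and 0 passed the adjusted test. RNF8, which starts the ubiquitin signal at DNA breaks, was listed at 0 in miR-28CT replicate 1 and had 1.86 scaled FPKM in replicate 2, against 1.35 and 2.24 in miR-28BIO. Its values overlapped between groups on FPKM, though not on interval midpoints (1.53 in miR-28CT replicate 2 against 1.54 and 2.18), its log2 fold change of 2.06 (SE 1.63) rests on the listed 0, and with its non-coding records added it was 0.60, without overlap. RNF168, which extends that signal, had 3.29 and 1.12 against 3.74 and 1.19 scaled FPKM, a log2 fold change of 0.13 that turned to -0.23 on interval midpoints, at 2.79 and 3.64 against 2.99 and 2.44. RNF169, which binds the mark that RNF168 makes, had 7.07 and 4.34 scaled FPKM in miR-28CT and 15.4 and 10.8 in miR-28BIO. The RNF169 groups did not overlap, with a log2 fold change of 1.20 (SE 0.50), and its 3'UTR holds no seed match. On interval midpoints RNF169 had 7.25 and 7.93 against 15.0 and 16.6, a log2 fold change of 1.05. It shares 2184 exonic bases with XRRA1 on the opposite strand. RNF20 and RNF40, partners in the ubiquitination of histone H2B, had log2 fold changes of 0.43 (SE 1.26) and -0.80 (SE 0.58), with overlapping groups in both on FPKM, and none in RNF40 on interval midpoints (-0.65). RNF4, which targets SUMO-modified proteins, was among the highest in level at 15.3 and 17.6 scaled FPKM in miR-28CT and 12.9 and 9.50 in miR-28BIO, so that the groups did not overlap (log2 fold change -0.57, SE 0.44), although they did on interval midpoints (-0.42).

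Ligases embedded in the membranes of the endoplasmic reticulum, Golgi, endosome or mitochondrion numbered 24 genes, of which 13 were tested, with 6 above and 7 below 0 (median -0.20). RNF185 and RNF5 are related ligases of the endoplasmic reticulum that act in the degradation of misfolded proteins, and their values lay on opposite sides. RNF185 had 0.81 and 0.71 scaled FPKM in miR-28CT and 1.77 and 3.43 in miR-28BIO, a log2 fold change of 1.58 (SE 0.56, limma unadjusted p = 0.046). With its non-coding records added the difference was 0.92. RNF5 had 1.17 and 0.87 against 0.43 and 0.09 scaled FPKM, a log2 fold change of -1.82 (SE 0.91), and is uncertain, since its nonzero record lies on an alternate contig of chromosome 6 and a pseudogene copy, RNF5P1, exists. RNF103, a ligase of the endoplasmic reticulum, had 3.41 and 1.89 scaled FPKM in miR-28CT and was listed at 0 in both miR-28BIO libraries, so no fold is given. The read-through transcript RNF103-CHMP3, which shares 508 exonic bases with it, was listed at 0 in all 4 libraries.

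RNF170, which acts on the IP3 receptor, was listed at 0 in miR-28CT replicate 1 and had 0.94 scaled FPKM in replicate 2, against 0.30 and 1.20 in miR-28BIO. Its groups overlapped, and its log2 fold change of 1.16 (SE 1.57) became 0.17 with the non-coding records. RNF26, which holds endosomes near the nucleus, was among the highest in level, at 6.52 and 26.6 scaled FPKM in miR-28CT and 6.49 and 20.1 in miR-28BIO. Its FPKM in both replicate 2 libraries lay above the interval in the same files, and on midpoints it had 7.19 and 8.75 against 7.87 and 9.86. Of these membrane ligases RNF145 and RNF24, besides RNF185, had both miR-28BIO values above, and RNF13 and RNF167, besides RNF103 and RNF5, had both below. These were 3 and 4 of the 13 tested (background over all genes 12.3% and 12.7%). RNF103 and RNF5 reached the minimum level for testing through miR-28CT alone. On interval midpoints the groups overlapped in RNF145, RNF13 and RNF167, whereas RNF182 then had both miR-28BIO values above and RNF130 and RNF139 had both below.

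RNF7 (also called RBX2) is the RING subunit of cullin ligases that are switched on by NEDD8. It had 3.14 and 9.06 scaled FPKM in miR-28CT and 10.1 and 16.8 in miR-28BIO, a log2 fold change of 1.27 (SE 0.71), with groups that did not overlap but replicates that differed within each. With its non-coding records added it had 3.54 and 10.9 against 10.1 and 24.8 scaled FPKM, and the groups overlapped. In the RBR ligases, which take the ubiquitin over from the E2 before passing it on, 3 of 7 tested genes had a log2 fold change above 0 and 4 below (median -0.21). RNF31, the catalytic subunit of the complex that builds linear ubiquitin chains, had 1.82 and 4.54 scaled FPKM in miR-28CT and 1.10 and 1.49 in miR-28BIO, a log2 fold change of -1.11 (SE 0.62) without overlap (-0.77 on interval midpoints). RNF216 had 5.10 and 2.96 against 7.26 and 5.53 scaled FPKM, also without overlap, in the opposite direction (log2 fold change 0.69, SE 0.49), but with overlap on interval midpoints. RNF31 shares 3457 exonic bases with another protein-coding gene on the same strand and 216 with PSME2 on the opposite strand.

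Ligases of Wnt signalling showed little separation. RNF43, which removes Wnt receptors from the cell surface, had 0.68 and 0.64 against 0.73 and 0.64 scaled FPKM. It shares 4326 exonic bases with another protein-coding gene on the same strand. RNF146, which marks axin after ADP-ribosylation, had 4.09 and 1.69 against 2.63 and 0.68 scaled FPKM (log2 fold change -0.91, SE 0.87, groups overlapping), and the value was 1.20 for its record with the highest mean FPKM alone. Among the 4 tested ligases of innate immunity and the RNF125-like group, 2 lay above and 2 below 0 (median 0.05). RNF166 had 1.59 and 5.87 against 0.39 and 2.77 scaled FPKM (log2 fold change -1.42, SE 1.17), and 0.23 for its highest record alone. RNF114 was high in every library, at 11.4 and 17.3 against 11.3 and 16.0 scaled FPKM, with overlapping groups.

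Of the 20 other tested RNF genes, RNF181 and RNF115 were high in level. RNF181 had 13.1 and 27.7 scaled FPKM in miR-28CT and 9.45 and 10.98 in miR-28BIO, without overlap (log2 fold change -0.90, SE 0.56). RNF115 had 16.4 and 11.6 against 11.7 and 11.7 scaled FPKM, with overlapping groups. RNF25 had 3.08 and 4.99 scaled FPKM against 1.50 and 2.65, without overlap (log2 fold change -0.94, SE 0.53). RNF214 had 1.49 and 0.50 against 3.23 and 0.77 scaled FPKM, with overlapping groups (log2 fold change 0.80, SE 0.97, and 0.54 on interval midpoints, where the groups did not overlap), and shares 1223 exonic bases with BACE1 on the opposite strand. RNF208 had 0.36 and 2.19 scaled FPKM in miR-28CT and 0.15 in miR-28BIO replicate 1, and was listed at 0 in miR-28BIO replicate 2. Its miR-28CT replicate 2 value lay above the interval, whose midpoint was 0.60.

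Many RNF genes differed more between replicate numbers than between groups. In 46 of 57 genes (80.7%, background 83.7%) replicate 2 lay on the same side of replicate 1 in both groups, above it in 24 and below it in 22. In 34 of 57 (59.6%, background 71.1%) the difference between replicate numbers was larger than that between groups. RNF126, which acts in the quality control of hydrophobic proteins, had 2.09 and 21.2 scaled FPKM in miR-28CT and 1.46 and 21.2 in miR-28BIO. Both replicate 2 values lay above their intervals, and on midpoints RNF126 had 2.47 and 3.89 against 1.94 and 4.77. RNF6 ran the other way, with 13.2 and 5.06 against 11.5 and 5.38 scaled FPKM, all within their intervals, with a log2 fold change of -0.06 (0.09 on midpoints). RNF20 had 6.85 and 1.22 against 9.40 and 1.65 scaled FPKM, but 6.97 and 6.75 against 8.74 and 6.51 on midpoints, its replicate 2 values lying below their intervals. On midpoints the counts over the RNF genes were again 46 and 34 (background 77.6% and 60.5%). Within the replicate numbers, 24 genes were higher in miR-28BIO in both (42.1%, background 30.1%), 26 were lower in both (45.6%, background 39%) and 7 had opposite directions. What the replicate number stands for is not given in the labels, and its part in single values was not tested.

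**Figure D4:**
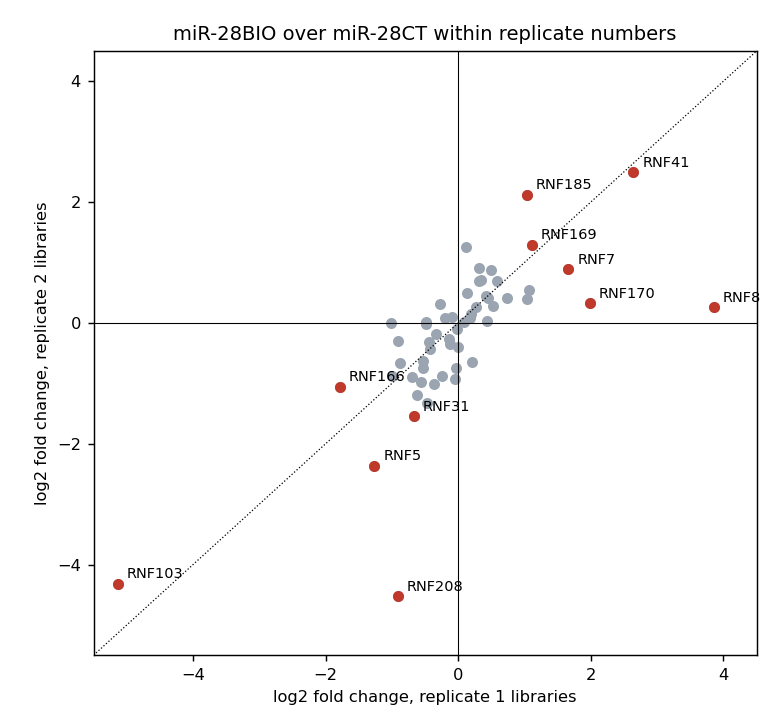
The log2 fold change of miR-28BIO over miR-28CT in the replicate 2 libraries (vertical) against that in the replicate 1 libraries (horizontal) for the 57 tested RNF genes, with the dotted line marking equal values. RNF41 lies close to the line at 2.64 and 2.49, whereas RNF8 at 3.85 and 0.26 and RNF208 at -0.91 and -4.52 rest on 1 replicate number.

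Single records often differed more between the groups than gene sums did, in the RNF genes as in all genes. Of 83 tested RNF records, 0 were higher and 0 were lower at an adjusted p under 0.05 (limma, background 0% each), and an unadjusted p under 0.05 was reached by 2 records higher and 2 lower in miR-28BIO (background 2.09% and 1.49%). In 21 genes with several records above 0, 27 of 47 tested records had a log2 fold change of at least 1 in size, and for 23 of the 27 the gene sum stayed under that. These were 57.4% and 48.9% of the 47 records, against 49.1% and 39.5% of 7539 such records over all genes. RNF212 is an example, with NM_194439 at 2.75 and 0 scaled FPKM in miR-28CT and 4.67 and 6.27 in miR-28BIO, and NM_001131034 at 1.29 and 3.82 and then 1.45 and 0 scaled FPKM. RNF14, an RBR ligase, had NM_001201365 at 0.64 and 0 in miR-28CT and 3.84 and 3.66 in miR-28BIO, while NM_183399 was at 4.51 and 3.59 and then 3.14 and 0 scaled FPKM. The gene sums had log2 fold changes of 0.64, without overlap between groups, and 0.23. Of the 47 records, 5 were listed at 0 in both miR-28CT libraries and 3 in both miR-28BIO libraries. How reads were divided among overlapping records of a gene was not tested.

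**Figure D5:**
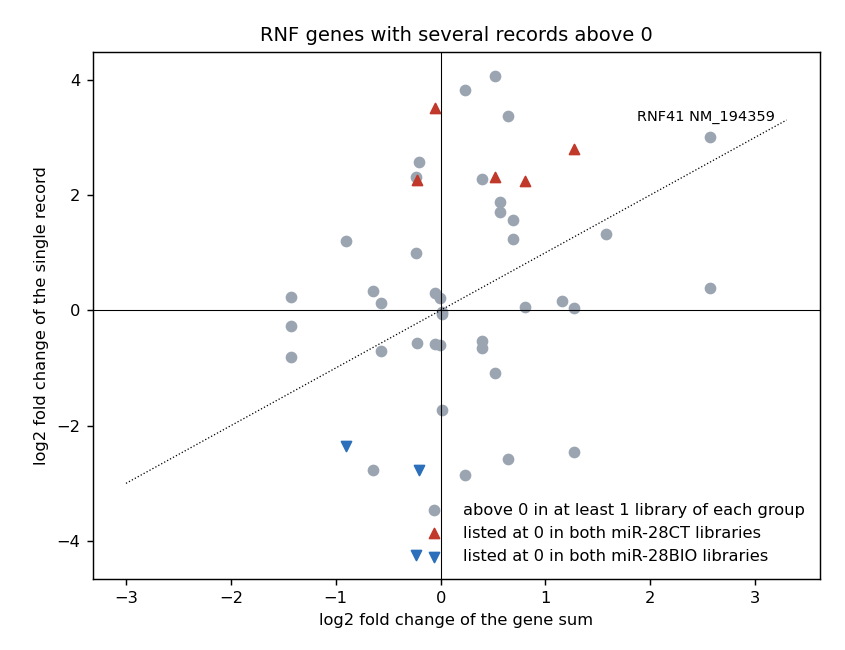
The log2 fold change of each of 47 tested records (vertical) against that of the sum of its gene (horizontal) for 21 RNF genes with several records above 0, with triangles for records listed at 0 in both libraries of 1 group. NM_194359 of RNF41 lies at 2.998 with a gene sum of 2.57, while records of genes with sums near 0 range from -4.23 to 4.06.

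The 25 RNF genes that were not tested had a mean under 0.5 scaled FPKM. RNF39, RNF113B, RNF121, RNF186, RNF207, RNF212B, RNF222 and RNF223 were listed at 0 in all 4 libraries, although a non-coding record of RNF121 (NR_024147) had 2.23, 4.14, 2.46 and 1.63 FPKM. The other 17 were above 0 in at least 1 library. The highest of them were RNF125, with 0.49 and 0.39 scaled FPKM in miR-28CT and 0.50 and 0.60 in miR-28BIO, and RNF217, with 0.37 and 0.24 scaled FPKM in miR-28CT and 0.73 and 0.61 in miR-28BIO, and with a seed match in its 3'UTR. RNF128, also called GRAIL, had 0.05 and 0.16 against 0.59 and 0.46 scaled FPKM. Among the tested genes 3 reached the minimum through miR-28CT alone and 1 through miR-28BIO alone, and 5 were listed at 0 in at least 1 library.

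Genes that work with RNF41 or with RNF ligases were followed in lists. Of 13 tested regulators and substrates of RNF41, 6 were above and 7 below 0 and 0 passed the adjusted test (median log2 fold change -0.09). Groups did not overlap in 3 of the 13 above, CLEC16A, MYD88 and PLK3, and in 0 below (background 12.3% and 12.7%). CLEC16A, which acts with RNF41 in mitophagy, had 1.87 and 1.56 scaled FPKM in miR-28CT and 5.32 and 3.37 in miR-28BIO (log2 fold change 1.26, SE 0.46). USP8 had 7.05 and 1.94 against 7.03 and 2.18 scaled FPKM, and ERBB3 had 1.25 and 1.51 against 1.39 and 1.67, both with overlapping groups. All 4 ubiquitin genes had a log2 fold change below 0 (median -1.004), and in UBB the values of 81.2 and 97.7 against 38.5 and 50.6 scaled FPKM did not overlap. Of 7 tested E1 subunits, 4 were above and 3 below 0 (median 0.03), and of 33 E2 enzymes 14 were above and 19 below (median -0.13). UBA3, a subunit of the NEDD8-activating enzyme, had 15.5 and 7.33 against 61.8 and 33.1 scaled FPKM, and UBE2R2, an E2 that serves cullin ligases, had 4.88 and 5.25 against 17.5 and 15.7, both without overlap. In the opposite direction UBE2E1, an E2, had 15.8 and 17.2 against 8.99 and 7.40 scaled FPKM (log2 fold change -1.01), without overlap. Groups did not overlap in 3 E1 subunits above and 0 below, and in 4 of the E2 enzymes above and 6 below (background 12.3% and 12.7%). Of 38 tested RING ligases of other names, 22 were above and 16 below 0 (median 0.07), and groups did not overlap in 9 above and 4 below (background 12.3% and 12.7%). CBL, a ligase for receptor tyrosine kinases, had 4.75 and 5.24 against 13.4 and 11.6 scaled FPKM, and RBX1, the RING subunit of most cullin ligases, had 13.7 and 24.6 against 6.40 and 8.23 (log2 fold change -1.33). None of the genes of these lists passed the adjusted test by limma, where 1, 0, 2, 2 and 2 were higher and 0 were lower at an unadjusted p under 0.05, in the order given (background 2.23% and 0.856%). UBA2, UBA3, UBE2H, UBE2R2 and CBL are in the study's list chosen on these libraries, so their direction is not independent of it.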

How the data were processed

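Bead-captured RNA was sequenced in 4 libraries, 2 per group, grouped by their labels. Reads (TruSeq Stranded Total RNA, HiSeq2000, single reads of 50 bases) had been processed by the authors, whose notes name FastQC 0.10.1, cutadapt, TopHat2 2.0.9, Cufflinks 2.1.1, Cuffdiff and hg38. The authors deposited for each library the FPKM of 53209 RefSeq records with Cufflinks interval bounds, coverage signal and a status. The deposited coverage was used here only to estimate reads per library (12.99 M to 17.9 M) and per record. All 175 RNF records had the status OK.

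Records not OK in every library were left out (52530 remained), FPKM was scaled by median-of-ratios factors over 11650 records, NM_ records were summed per gene, and values were put on the log2(scaled FPKM + 0.1) scale, and genes or records with a mean of at least 0.5 scaled FPKM entered limma 3.58.1 (trend, R 4.3.3), with Benjamini-Hochberg adjustment over all 11219 genes or 15587 records. Fold changes are on that scale and understate those of low genes. The script was tested on simulated data. Of tested records 98.43% had a gene symbol. Seed matches were searched on the sense strand of GENCODE 44 transcripts, with the canonical transcript of each gene as reference. Whole reads could not be recovered from FPKM, so no count test was run.

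The members and lists were chosen with earlier results of these data known. Named genes are RNF41, the 6 RNF genes highest in level, the 8 with the highest and the 8 with the lowest log2 fold change and those with groups at least 1 apart in log2 fold change without overlap. Other genes were named after their values were seen. Values of 1 RNF gene and 1 marker are not reported here. A likeness of patterns to RNF41 was not computed, since 4 libraries are too few. Alternatives were pseudocounts of 0.01 and 1, other filters and scalings, other gene values, Cufflinks intervals and their midpoints, a replicate block and leaving out each library.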

Additional observations from a re-analysis of the deposited data

How the results depend on the processing

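The labels do not say that equal replicate numbers mark a shared culture or day, so the numbers were not used as pairs. Deviations from the group means correlated between same-numbered libraries across genes (Pearson's r = 0.60 and Spearman's rho = 0.80 over all genes, 0.79 and 0.79 over RNF genes). A limma fit that took the replicate number as a block (replicate block) called 0 RNF genes higher and 0 lower (adjusted p), and 6 and 11 at an unadjusted p under 0.05 (background 9.59% and 14.3%). The block leaves each fold change as it is by construction, with an adjusted p of 0.0875 for RNF41 (2.57) and 0.347 for NM_194359 (2.998). When non-coding records were added to the gene sums together with the block, an alternative added after seeing the data, 1 RNF gene was called higher, RNF41, at 2.41 (adjusted p = 0.0450). The share of all genes called by that fit is not given here, so the call cannot be read as particular to RNF41. NR_040053 brings miR-28CT replicate 1 to 3.81, the level of replicate 2. Without the block the same sum had an adjusted p of 0.794, and with the block on the highest record alone it was 0.265. Over the alternatives without a block the adjusted p of the RNF41 sum ranged from 0.349 (interval midpoints) to 1.00.

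RNF41 stayed above 0 under every alternative run, between 2.41 and 2.72 without each library in turn, and NM_194359 between 2.59 and 3.41. Cufflinks intervals of the groups were apart in 8 records higher and 2 lower in miR-28BIO (6.6% and 4.43% of all tested records), with FPKM inside its interval in every library for 7 of the 8 and both of the 2, against 0 and 0 called by limma. The 11 RNF genes with both miR-28BIO values above became 17 on FPKM as deposited, 7 with the highest record, 2 when 2-fold separation was asked and 18 to 21 without each library (25.2% to 32.1% of all genes). For the highest record the share over all genes is not given here, so the 7 cannot be set against a background. The 12 below became 3 with 2-fold separation and 18 to 22 without each library (28.3% to 38.6% of all genes). On interval midpoints they were 13 and 9 (background 16.6% and 16.8%), and 8 of the 11 and 7 of the 12 kept their separation. The RNF median of -0.20 became -0.13 with a pseudocount of 1, 0.032 without a filter, -0.13 with a minimum of 1, 0.11 on FPKM as deposited (where the median of all genes moved from -0.08 to 0.08), -0.025 with the highest record, 0.041 on interval midpoints (all genes -0.02), and between -0.21 and 0.048 without each library, so its sign is not settled. The difference of 0.82 between RNF genes with and without a 3'UTR match became 0.42 for nucleotides 2 to 7, 0.75 with the longest 3'UTR and 0.75 without RNF41. The match followed by an A gave no value, since no tested RNF gene has it.

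Among named genes the direction turned for RNF114 on FPKM as deposited (0.11) and without miR-28CT replicate 2 (0.24) or miR-28BIO replicate 1 (0.19), in a range from -0.36 over the libraries left out. It turned without miR-28CT replicate 1 for RNF115 (0.016, range from -0.48), RNF170 (-0.53, range to 2.84) and RNF8 (-0.090, range to 4.202). It turned without miR-28BIO replicate 1 for RNF214 (-0.16, range to 1.77) and RNF26 (0.61), and for RNF26 also without miR-28CT replicate 2 (0.80, range from -1.21) and on interval midpoints (0.15), and, with the highest record, for RNF146 (1.20) and RNF166 (0.23), also with the block. The cause was not tested. The remaining 324 values of the genes named by rule kept their direction and their side of the threshold.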
